A study of Mus musculus with 6 samples.

Results

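In colon crypts that lacked the chromatin remodeller gene Smarcad1, 3 genes tied to the lysosomal surface, where nutrient supply is read by the mTORC1 kinase complex, differed in mRNA level from wild type: Sh3bp4 was lower, and Rnf152 and Atp6v0c were higher. They were taken by name from the authors' deposited list of 61 genes that passed a false discovery rate (FDR) threshold of 0.05 between the genotypes, so the list itself had been selected on the difference described here. The wild type (WT) group was 3 libraries of C57BL/6 mice. The Smarcad1-KO group (KO) was 3 libraries of C57BL/6 mice in which the gene was deleted by a Cre recombinase under the Villin promoter, which drives expression in the intestinal epithelium. The labels do not say whether the WT mice carried a floxed allele or the recombinase, nor how old the animals were, and the study's methods describe males. RNA was taken from colon epithelium shaken off as whole crypts, without cell sorting, and the labels name no treatment for either group. The deposited table holds 1 mean log2 expression value per genotype, each over 3 libraries. Values of single libraries, their spread and the sequencing depth were not analysed here, so no difference below carries an error or a test, and each is a description.

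The lysosome breaks down cell material in an acid interior, and its outer face is a platform for growth control. When amino acids are plentiful, Rag GTPases, which work as heterodimers held there by the Ragulator complex, bring mTORC1 to the lysosome, where it is switched on and favours protein synthesis and growth over autophagy. Sh3bp4 encodes an SH3 domain protein that was first described in the endocytosis of cell surface receptors and that binds Rag GTPases and holds back mTORC1 when amino acids are scarce. Rnf152 encodes a ubiquitin ligase anchored in the lysosomal membrane, which attaches ubiquitin to RagA and so dampens the same signal. Atp6v0c encodes the small membrane subunit that builds the rotor ring of the V-ATPase, the proton pump that acidifies lysosomes and that also contacts Ragulator. In the intestine, mTORC1 activity is known for its part in the growth and regeneration of crypts.

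The stretches directly before annotated start sites of the 3 genes are shown first, because transcription is set up around such sites. The stretches printed differ in make-up, and for Atp6v0c the make-up depends on the start taken. They are the 250 bases before a RefSeq start on GRCm38.p6, written 5′ to 3′ on the strand of the gene, and capitals mark GGGCGG on either strand, the box known as a binding site of Sp/KLF factors. The Sh3bp4 stretch is chr1:89070165-89070414 on the plus strand, that of Rnf152 is chr1:105356711-105356960 on the minus strand, and that of Atp6v0c, at the outermost of its 3 RefSeq starts, is chr17:24169679-24169928 on the minus strand.
Sh3bp4: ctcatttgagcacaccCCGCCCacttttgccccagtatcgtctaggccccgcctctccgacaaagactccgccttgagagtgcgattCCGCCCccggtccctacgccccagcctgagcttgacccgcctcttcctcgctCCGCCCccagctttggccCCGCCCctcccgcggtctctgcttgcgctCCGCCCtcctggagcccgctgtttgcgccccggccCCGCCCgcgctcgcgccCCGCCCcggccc
Rnf152: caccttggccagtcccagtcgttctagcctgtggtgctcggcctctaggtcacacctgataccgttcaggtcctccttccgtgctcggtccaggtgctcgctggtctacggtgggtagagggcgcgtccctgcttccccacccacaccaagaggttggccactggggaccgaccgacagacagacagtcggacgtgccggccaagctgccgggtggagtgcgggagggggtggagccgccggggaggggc
Atp6v0c: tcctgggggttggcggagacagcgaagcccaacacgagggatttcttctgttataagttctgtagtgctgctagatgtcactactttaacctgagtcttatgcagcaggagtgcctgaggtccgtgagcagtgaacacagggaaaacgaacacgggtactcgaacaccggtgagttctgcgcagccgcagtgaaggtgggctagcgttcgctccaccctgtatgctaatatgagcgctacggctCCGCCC

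The Sh3bp4 promoter was the richest of these in G and C, at 72.4%, above 93.6% of the 32851 promoter windows of the RefSeq table, in which the median was 52.4%. It held GGGCGG at 7 places, and 0.411% of all windows held as many or more. The cut of 7 was taken from Sh3bp4 itself. The windows were not matched for G and C content, and the box is made of G and C alone, so the share does not separate the 2 traits. The Rnf152 promoter, at 67.6% G and C, held 0 copies before the start, and 1 copy was found when the window was extended to 50 bases past it. The outermost Atp6v0c start had a poorer stretch, at 55.2% G and C with 1 copy. The second Atp6v0c start, 24169450, had 68.8% G and C with 2 copies, and the third, 24168809, had 66.8% with 2 copies. The Atp6v0c transcript of 1183 bases described below starts at 24169461 in GENCODE M21, next to the second start and not the outermost. Which start is used in these crypts was not examined. At least 1 copy was found in 32.7% of all windows, so its presence alone does not set these genes apart.

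The other sequences looked for were absent from all of these stretches. CACGTG, the core of the element read by the lysosomal gene regulator TFEB, and TCACGTG, which contains it, had 0 matches on either strand before any start of the 3 genes. They were found in 6.02% and 3.13% of all windows, so few promoters hold them. CCAAT (33.8% of all windows) and TATAAA (12.4%) also had 0 matches. These counts describe the letters of the windows and were not related to the expression values.

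The deletion was examined first in the targeted gene. Smarcad1 had a mean log2 expression of 2.87 in KO and 4.58 in WT, which puts its mean level in KO at 30.7% of that in WT. The libraries labelled KO thus had the lower mean level of the targeted gene. Exons outside the deleted part also count towards these values.

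Sh3bp4, the Rag-binding inhibitor, was the member with the lower mean in KO. Its mean log2 expression was 5.56 in WT and 4.89 in KO, a difference of -0.67 (KO minus WT, as for all differences here). On the linear scale the KO mean was 62.9% of the WT mean. Among the 27 listed genes with a lower mean in KO, it ranked 21st by size, and the median difference of those genes was -0.90. Sh3bp4 therefore belonged to the smaller decreases of the list.

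Rnf152, the ligase acting on RagA, had the largest difference of the 3 members. Its mean log2 expression was 3.65 in WT and 4.48 in KO, a difference of 0.83. The KO mean was 1.78-fold the WT mean on the linear scale. Of the 34 listed genes with a higher mean in KO it ranked 13th by size, where the median was 0.76. The 2 inhibitors of Rag signalling thus had differences of opposite sign, at -0.67 and 0.83.

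Atp6v0c, the rotor subunit of the proton pump, had the smallest difference of the 3. Its mean log2 expression was 4.68 in WT and 5.28 in KO, a difference of 0.61, or 1.52-fold on the linear scale. It ranked 25th by size of the 34 higher genes.

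**Figure D1:**
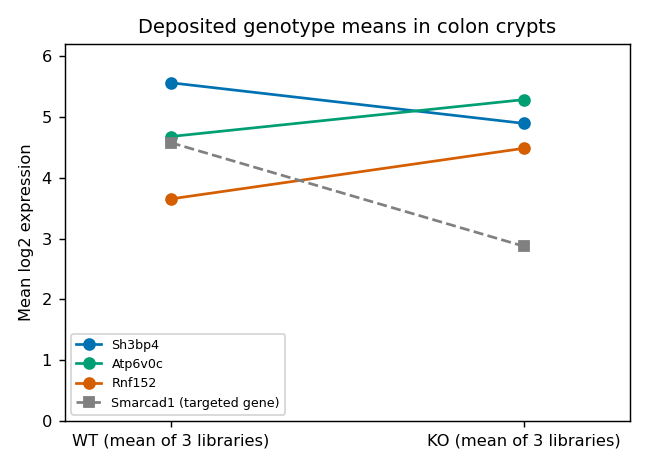
Mean log2 expression (vertical axis) in WT and KO colon crypts for Sh3bp4, Rnf152 and Atp6v0c, with the targeted gene Smarcad1 in grey. Each point is the authors' mean of 3 libraries and has no error bar. The Sh3bp4 line falls from 5.56 to 4.89, those of Rnf152 and Atp6v0c climb to 4.48 and 5.28, and the lines of Sh3bp4 and Atp6v0c cross.

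Of the 3 members, 2 had a higher mean in KO, against 55.7% of the 61 listed genes, and 1 had a lower mean, against 44.3%. These shares describe a list already chosen on this comparison, and nothing is read from them. No member differed by more than 1 log2 unit, a size that 37.7% of the listed genes passed. The sizes of the 3 differences lay between 0.61 and 0.83, with a median of 0.67, and the median size over the list was 0.78. Rnf152 was larger in size than 55.7% of the listed genes, Sh3bp4 than 27.9% and Atp6v0c than 21.3%. Rnf152 was thus near the middle of the list by size, while Sh3bp4 and Atp6v0c were among its smaller differences. Sizes over the list ran from 0.42 to 6.78.

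**Figure D2:**
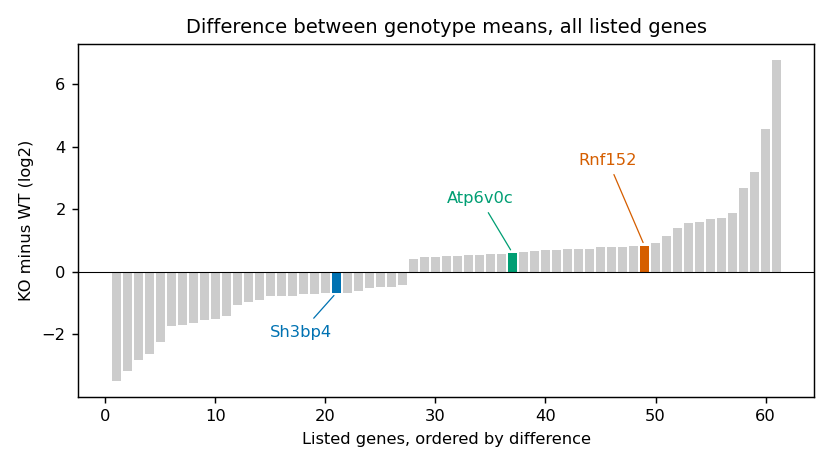
Difference between the KO and WT means (log2, vertical axis) for the 61 genes of the deposited list, 1 bar per gene, ordered from the largest decrease to the largest increase. Coloured bars are Sh3bp4 at -0.67, Atp6v0c at 0.61 and Rnf152 at 0.83, all within 1 log2 unit of zero.

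On the deposited scale the members lay closer together in KO than in WT. Their WT means spanned 1.91 log2 units, from Rnf152 to Sh3bp4, and their KO means spanned 0.80, from Rnf152 to Atp6v0c. Within the Rag regulators, the level of Sh3bp4 was 3.76-fold that of Rnf152 in WT and 1.33-fold in KO on the deposited scale. Between Sh3bp4 and Atp6v0c the order turned: Sh3bp4 lay 0.88 log2 units above Atp6v0c in WT and 0.39 below it in KO. The spread of the libraries behind these gaps was not analysed, so whether neighbours in the order differ beyond it is not known.

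A comparison of levels between genes needs values per length, and the sources leave the scaling unclear: the table is described as normalised to total reads, while for fold changes the methods cite RPKM, in which reads are divided by transcript length. If the values are already per length, the order in WT was Sh3bp4, Atp6v0c, Rnf152. If they are per total reads only, division by the merged exon length of each gene, in kb, gives linear WT levels of 9.24 for Sh3bp4, 7.56 for Atp6v0c and 1.47 for Rnf152. The KO levels on that reading were 5.82 for Sh3bp4, 11.5 for Atp6v0c and 2.62 for Rnf152. Rnf152 was the lowest of the 3 on both readings and in both genotypes. The place of Sh3bp4 above Atp6v0c in WT was lost when the longest annotated transcript was taken as the length, where the level of Atp6v0c was 1.05-fold that of Sh3bp4. Per kb of merged exons, the span of the 3 members was 2.65 log2 units in WT and 2.13 in KO, and the gap between Sh3bp4 and Atp6v0c was 0.29 in WT and 0.99 in KO, so that this gap was smaller in KO on the deposited scale and larger in KO on this one. The difference between KO and WT of a gene does not depend on this scaling.

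The gene models bear on what was counted, since reads were summed over the exons of all isoforms of a gene. Sh3bp4 (ENSMUSG00000036206) lies on chromosome 1 of GRCm38 from 89070415 to 89155068 on the plus strand and spans 84.7 kb. Its coding transcript has 6 exons and 4995 bases, of which 2886 encode 962 residues and 1717 form the 3′ UTR. The 50-base words of that transcript occurred in 0 other annotated genes. One gene model of unclear status, Gm38312, lies within it on the same strand and shares 0 exon bases with it.

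Rnf152 (ENSMUSG00000047496) lies 16.1 Mb away on the same chromosome, from 105276917 to 105356710 on the minus strand in the deposited table, with the lower end 3 bases further out, at 105276914, in GENCODE M21. Its coding sequence sits in 1 exon and encodes 203 residues, while the 3′ UTR takes 7305 of the 8492 bases of the transcript, or 86.0%. The reads of Rnf152 can thus come mostly from its 3′ UTR. An antisense gene on the other strand, Gm17634, shares 368 exon bases with the 5′ part of Rnf152. The libraries kept the strand of the RNA, but the sources do not say whether counting used it, so reads from these bases cannot be assigned with certainty. Only 0.178% of the 50-base words of Rnf152 occurred in other genes.

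Atp6v0c (ENSMUSG00000024121) lies on chromosome 17 from 24163866 to 24169702 on the minus strand, a compact gene of 5.84 kb. The transcript of the listed protein has 3 exons and 1183 bases, with 465 bases that encode 155 residues. GENCODE M21 gives 6 transcripts, of which 3 are non-coding, and the longest of all is one of these, with 2567 bases.

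**Figure D3:**
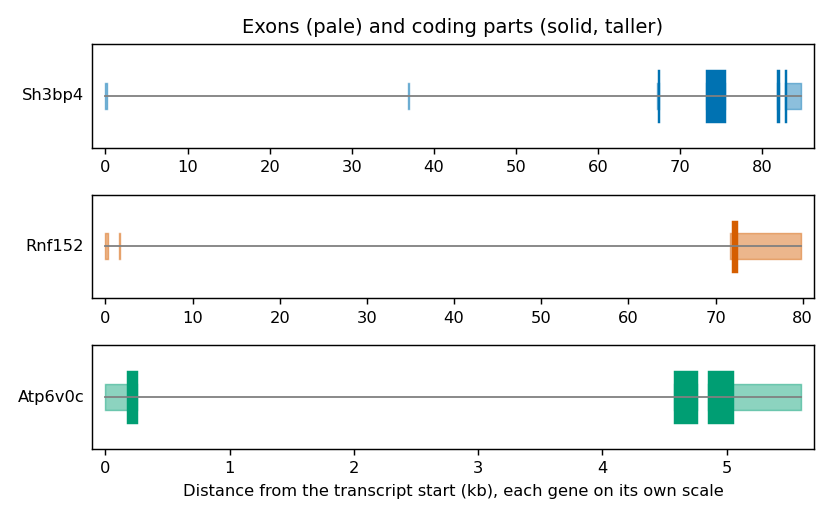
Exons (pale) and coding parts (solid, taller) of the transcript of the listed protein for Sh3bp4, Rnf152 and Atp6v0c, by distance from the transcript start in kb, each gene on its own scale. Sh3bp4 has 6 exons with 4 coding, Rnf152 has 1 coding exon with a 3′ UTR of 7305 bases, and Atp6v0c has 3 coding exons within 5.84 kb.

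Atp6v0c differs from the other two in having processed pseudogenes, copies of its mRNA set back into the genome. Of the 50-base words of its coding transcript, 32.5% also occurred in Atp6v0c-ps2 (chromosome 6, 37806086 to 37806550, plus strand) or Atp6v0c-ps1 (chromosome 7, 4412438 to 4412900, plus strand). Nearly all of this was shared with Atp6v0c-ps2, at 32.3% of the words, and 6.88% were shared with Atp6v0c-ps1. The shared words lay in the coding part and covered 99.6% of its bases, while they covered 0 of the 177 bases of the 5′ UTR and 0 of the 538 bases of the 3′ UTR. With the longest transcript, which is non-coding, 12.2% of the words were shared. Since only uniquely mapped reads were kept, the coding part of Atp6v0c can be undercounted, and its level is uncertain for that reason. The part of shared reads in the difference between KO and WT was not tested.

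**Figure D4:**
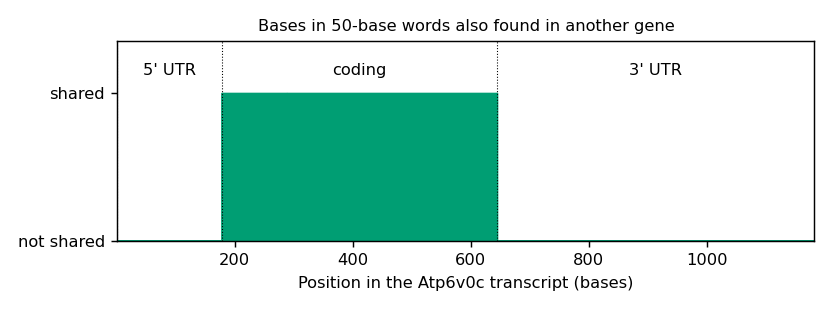
Bases of the 1183-base Atp6v0c transcript (horizontal axis) that lie in a 50-base word also found in another annotated gene, with dotted lines at the borders of the coding part. The shared stretch fills the coding part, at 99.6% of its bases, and neither UTR has a shared base.

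The other genes of the pathway were looked up next. Of 30 genes of the Rag GTPase pathway, which hold the Rag GTPases, Ragulator, the GATOR and KICSTOR complexes and the amino acid sensors, the 2 listed were Sh3bp4 and Rnf152, and 0 of the 28 others were. Of 25 V-ATPase subunit and accessory genes, Atp6v0c was listed and 0 of the 24 others. Of 15 genes of mTORC1, its upstream regulators and its targets, including Mtor, Rptor and Tfeb, 0 were listed. These 15 leave out most genes that mTORC1 acts on through transcription factors. No list of those genes was looked up. An example that was in the table is Mthfd2, a mitochondrial folate enzyme gene known to be induced through ATF4. Its mean log2 expression was 4.96 in WT and 4.33 in KO, a difference of -0.62. Of 18 genes of lysosomal membrane proteins and hydrolases, including Lamp1 and Ctsd, 0 were listed. These 18 are not all lysosomal genes: Lgmn, which encodes the lysosomal cysteine protease legumain and is in none of these gene lists, was in the table, with a mean log2 expression of 6.35 in WT and 5.66 in KO and a difference of -0.69. Mthfd2 and Lgmn were named after their values were seen. In total, 0 of 85 genes beside the 3 members were in the table analysed here. Of the 21924 protein-coding gene symbols of GENCODE M21, 56 (0.255%) were in the table, a share at which 0.217 of 85 genes would be listed, so a count of 0 does not set the pathway apart. No value is at hand for these genes, so nothing is said of their expression.

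The listed genes most like each member were taken as the 2 with the nearest pair of WT and KO means, by Euclidean distance over the 2 genotypes on the log2 scale. For Sh3bp4 these were Pcsk1, which encodes a prohormone convertase of enteroendocrine cells, at 0.072 and Lpo, a peroxidase gene, at 0.20. For Rnf152 they were Zfp809, a zinc finger repressor gene of retroviral elements, at 0.37 and Gsta3, a glutathione transferase gene, at 0.40. For Atp6v0c they were Tmem236 at 0.49 and H2-T3, a non-classical MHC class I gene, at 0.55. These distances rest on 2 values per gene, each a mean over the same libraries. They also compare levels between genes on the deposited scale, so the neighbours can depend on the unclear length scaling.

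Whole crypts can carry immune and stromal cells, so markers were looked up in the list. Of 7 epithelial markers, including Epcam and Vil1, and of 6 stromal markers, 0 were listed, and their levels were not analysed here. Among 8 immune markers the list held 1, Gzmb, which encodes a granzyme of cytotoxic lymphocytes. Its mean log2 expression was 2.72 in WT and 1.17 in KO, a difference of -1.55. At the listed share of all protein-coding genes, 0.0536 of the 21 markers would be in the table, so the counts of 0 carry no information on these cell types. The part of Gzmb-expressing cells in the differences of the 3 members was not tested. In these bulk samples, a change in the share of a cell type cannot be told apart from a change in the amount of mRNA per cell.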

How the data were processed

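Total RNA of colon crypts went into directional libraries, 3 WT and 3 KO, grouped by sample title. Per the submitters' processing notes and the study's methods, the authors trimmed reads with Trim Galore 0.4.2, mapped them to GRCm38 with HISAT2 2.0.1, kept uniquely mapped reads and quantified them in SeqMonk over the exons of merged isoforms. The authors deposited log2 expression averaged over the libraries of each genotype. It is described as normalised to total reads, and whether it was also divided by transcript length is unclear, as stated above. The deposited table also holds an FDR per gene from DESeq2, which was not used beyond a check that 0 of the 61 genes were at or above 0.05. Sequencing depth is unknown here, so intervals and detection limits were not computed. Whether the libraries came from separate animals is not given in the labels.

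The difference was the KO mean minus the WT mean. No test was run, because values per library were not used and the list was selected on this comparison. Named genes were the 3 members, Smarcad1, the 2 nearest listed genes of each member and any listed gene of 4 pathway lists. Gzmb was named because it was the single marker listed, and Mthfd2 and Lgmn were named outside this rule, after their values were seen. Members and lists were chosen with earlier results of these data known. Gene models and transcripts were those of GENCODE M21, of the same build: all 3 members matched by symbol. Words of 50 bases were compared with the sense sequence of the annotated transcripts of other genes, so copies outside the annotation were not searched. A stand-alone version of the word count was tested on simulated sequences. The count that gave the shares printed here was written separately and was not tested in this way. Promoter sequences were RefSeq's, and all 3 members matched. Alternatives were linear pseudocounts (1 and 0.1), a minimum mean log2 of 1, lengths for levels, and words of 100 bases. Scripts ran in Python 3.11.15 (numpy 2.4.6, pandas 2.3.3, matplotlib 3.10.9).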

Additional observations from a re-analysis of the deposited data

How the results depend on the processing

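With a pseudocount of 1 on the linear scale the differences were -0.65 for Sh3bp4, 0.79 for Rnf152 and 0.59 for Atp6v0c, and with 0.1 they were -0.67, 0.83 and 0.60. A pseudocount cannot turn a direction, so these settings do not test it. As the spread between libraries was not used here, a shift of over 0.1 in a difference was taken as a change, and it was seen for 0 of the 3 members under either pseudocount. The places of the members by size of difference moved by less than 10 percentage points under the pseudocount of 1 and with a mean log2 of at least 1.

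Ratios of levels between genes depended on the length used: the WT level of Atp6v0c was 0.54 of that of Sh3bp4 on the deposited scale, 0.82 after division by merged exon length and 1.05 after division by the longest transcript. The WT level of Atp6v0c over Rnf152 was 2.04, 5.14 and 6.74 in the same order, and that of Sh3bp4 over Rnf152 was 3.76, 6.28 and 6.39. The share of Atp6v0c words in other genes was 12.2% with the longest transcript and 32.5% with the coding transcript, a choice made after seeing the data, and 10.3% and 24.5% with words of 100 bases. No paired analysis was possible because the processed table analysed here enters each genotype as a single mean, with no library to pair, block or leave out. Values per library that accompany the study were not used here. Whether a difference rests on 1 library was therefore not analysed.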
